A study of Mus musculus with 29 samples.

Results

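Brown adipose tissue (BAT) of mice under calorie restriction (CR) was compared with BAT of mice fed ad libitum, in animals that did not train. The comparison took in every BAT library labelled CR (4) or control (3), which made 7 of the 29 libraries of the series, and 13323 of the 24770 genes in the deposited table had enough reads to be tested. All mice were wild-type (WT) males of the C57BL/6J strain that were 8 weeks old at the start. The CR group had its food intake lowered week by week to 70% of ad libitum intake, the control group ate freely, both stayed sedentary for 8 weeks, and both were fasted for 6 h before BAT was taken. The CREX and EX groups (4 libraries each) followed the same diets with treadmill training, and they are used here only to set the diet response of trained mice beside that of sedentary mice. The labels do not tie libraries to single animals, so the p-values measure the spread between these samples.

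BAT makes heat. Brown adipocytes hold many mitochondria, and the uncoupling protein Ucp1 lets protons flow back across the inner mitochondrial membrane without making ATP, so that the energy of fatty acids and glucose leaves as heat. Noradrenaline from sympathetic nerves and thyroid hormone switch this programme on, and the cells refill their lipid droplets by taking up or making fatty acids. The tissue also holds a dense capillary bed, pericytes, fibroblasts that lay down matrix, immune cells and nerve fibres, and glucocorticoids and the circadian clock act on most of these cells.

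The libraries held 21154276 to 24665593 expected counts each, and mitochondrial transcripts took 41.5% to 45.9% of them. Levels are given as CPM (counts scaled to the same library total) after TMM scaling, and they compare libraries for 1 gene, not genes with each other. Brown adipocyte markers summed to 14500, 15240, 14890 and 15180 CPM in the CR libraries and 15970, 17630 and 17360 CPM in the control libraries, and the defining markers Ucp1 and Cidea were present in all 7 libraries at the levels given further on. Skeletal muscle transcripts, in contrast, ranged widely within both groups, with sums of 78.5, 112, 2211 and 1105 CPM in the CR libraries and 1047, 134 and 59.7 CPM in the control libraries, and CR replicates 3 and 4 and control replicate 1 carried the most. None of the 20 muscle markers was called, and 20 of them were higher in CR by their fitted values (median log2 fold change 1.11). Of the genes named here as called, Acaca, Acot2, C2, C4b, C7, Cd34, Dusp1, Isg15, Mcpt4, Mrc1, Ngfr, Nnat, Nr4a1, Pdgfrb, Per2 and Serpina3c were not called without these 3 libraries, where the log2 fold change was larger in size for C2, C4b, Dusp1, Nr4a1 and Per2 and smaller for the others. Acot1, Mrc1, Nr4a1 and Serpina3c were not called with the mean level of the muscle markers as a covariate.

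A gene was called when edgeR's quasi-likelihood test gave a Benjamini-Hochberg adjusted p under 0.05 over all tested genes and the fold change was above 1.5. By this rule 516 genes rose and 914 fell with CR, that is 3.87% and 6.86% of the genes tested. Counts of list members given further on are to be read beside these shares. Among them 214 rose and 422 fell by more than 2-fold, and 41 rose and 53 fell by more than 4-fold. The CR and control libraries did not overlap for 502 of the genes that rose and 898 of those that fell, against 33.4% of all genes tested. Genes named for the largest changes were picked among those without overlap, so for them the lack of overlap was set by the choice. The median log2 fold change over all tested genes was 0.0045. In bulk tissue, fewer cells of a type and less RNA per cell cannot be told apart, which bears on every fall described here.

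**Figure D1:**
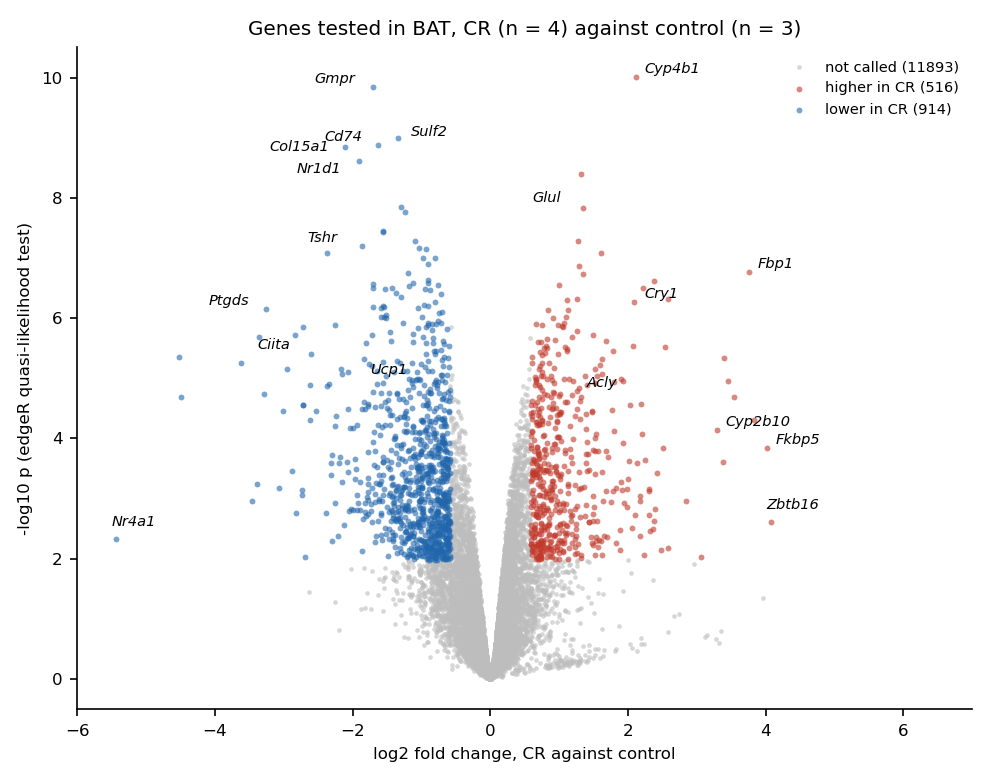
Each point is 1 of the 13323 genes tested, with its log2 fold change (CR against control) on the x axis and -log10 of the unadjusted p on the y axis; red genes (516) rose and blue genes (914) fell. Cyp4b1 and Gmpr have the smallest p on either side, while Fkbp5 and Nr4a1 lie farther out with larger p.

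The genes that rose included many enzymes and carriers. Cyp4b1, a cytochrome P450 of fatty acid and xenobiotic hydroxylation (chr4:115624698-115647721, GRCm38), stood at 92.4, 104, 95.3 and 102 CPM in the CR libraries and at 25.1, 22.2 and 20.8 CPM in the control libraries. The groups were tight and far apart, with a fold change of 4.34 (log2 fold change 2.12 ± 0.087 (SE), adjusted p = 9.48e-07). Fbp1, the fructose-1,6-bisphosphatase of gluconeogenesis, stood at 3.86, 2.65, 5.77 and 4.55 CPM in the CR libraries and at 0.306, 0.282 and 0.33 CPM in the control libraries (log2 fold change 3.76 ± 0.32 (SE), adjusted p = 9.51e-05). All Fbp1 levels in CR lay far above those in control. Glul, glutamine synthetase, rose from 926, 1031 and 1176 CPM in control to 2854, 2587, 2620 and 2529 CPM in CR (log2 fold change 1.34 ± 0.089 (SE), adjusted p = 2.2e-05). Rises without overlap were also seen for Tcn2, which carries vitamin B12 into cells (157 to 173 against 57.1 to 74.1 CPM, log2 fold change 1.27 ± 0.095), Prodh, which starts proline breakdown (41.1 to 45.0 against 15.1 to 20.8 CPM, 1.29 ± 0.11), and Ttpa, a carrier of vitamin E (3.83 to 5.72 against 0.784 to 0.926 CPM, 2.37 ± 0.21). Myrip, which links vesicles to myosin, rose too (16.1 to 23.7 against 2.45 to 4.74 CPM, 2.53 ± 0.23), as did Doc2b, a calcium sensor of vesicle fusion (1.44 to 4.07 against 0.0413 to 0.282 CPM, 3.83 ± 0.55).

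The genes that fell included other enzymes, receptors and adhesion molecules. Gmpr, guanosine monophosphate reductase, stood at 28.4, 27.9, 31.8 and 28.6 CPM in the CR libraries and at 95.2, 100.3 and 90.2 CPM in the control libraries. Its groups were tight and separate (log2 fold change -1.71 ± 0.072 (SE), adjusted p = 9.48e-07). Sulf2, a sulfatase that edits heparan sulfate outside the cell, fell from 54.1, 51.4 and 47.9 CPM to 21.2, 19.6, 20.6 and 19.6 CPM (log2 fold change -1.34 ± 0.068 (SE), adjusted p = 3.81e-06). Arrb1, a beta-arrestin that quenches G protein-coupled receptors, and Mcam, an adhesion molecule of pericytes and endothelium, also fell in all CR libraries (19.8 to 23.4 against 48.8 to 58.4 CPM, -1.30 ± 0.086, and 13.8 to 19.4 against 44.7 to 51.1 CPM, -1.56 ± 0.11). Nnat and Ptgds, which encode neuronatin and the lipocalin-type prostaglandin D synthase, fell further. Nnat stood at 1.56, 1.56, 0.494 and 1.16 CPM in the CR libraries and at 11.8, 19.6 and 5.90 CPM in the control libraries. Its control libraries differed among themselves by more than 3-fold yet all lay above CR (log2 fold change -3.38 ± 0.52 (SE), adjusted p = 0.0078). Ptgds stood at 0.911, 0.520, 0.659 and 0.516 CPM in the CR libraries and at 7.17, 7.97 and 3.67 CPM in the control libraries, again without overlap (log2 fold change -3.25 ± 0.30 (SE), adjusted p = 0.00017). Gem, Apold1 and Dusp8, genes of small GTPase signalling, vascular activation and MAP kinase dephosphorylation, fell too, with log2 fold changes of -3.46, -3.08 and -2.54. Without the 3 libraries richest in muscle transcripts the fall of Nnat kept its size (-3.03) but not its call (adjusted p = 0.163).

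Genes that the glucocorticoid receptor is known to switch on were among the largest rises. Fkbp5, which encodes a co-chaperone that damps the receptor (chr17:28398753-28486149), stood at 70.8, 65.2, 68.7 and 49.98 CPM in the CR libraries and at 6.64, 1.73 and 3.42 CPM in the control libraries. All 4 CR libraries were far above the highest control library (log2 fold change 4.03 ± 0.45 (SE), adjusted p = 0.0034). Zbtb16, a zinc finger repressor, stood at 182, 159, 42.8 and 95.01 CPM in the CR libraries and at 12.1, 4.14 and 5.16 CPM in the control libraries (log2 fold change 4.08 ± 0.75 (SE), adjusted p = 0.0198). CR replicate 3 was the lowest of its group but still above every control library. Of 24 tested genes on the list of receptor targets, 11 rose and 3 fell, with a median log2 fold change of 0.59. Among those that rose were Hif3a, a hypoxia-inducible factor subunit (1.195 to 2.18 against 0.0825 to 0.262 CPM, 3.39 ± 0.40), Sult1a1, a sulfotransferase (56.7 to 80.7 against 19.7 to 30.0 CPM, 1.52 ± 0.16), and Glul. Fam107a (4.04 to 5.42 against 0.845 to 2.49 CPM, 1.62 ± 0.30), the kinase gene Map3k6 (38.6 to 46.4 against 13.8 to 26.7 CPM, 1.06 ± 0.21) and the metallothionein genes Mt1 (311 to 596 against 136 to 175 CPM, 1.52 ± 0.23) and Mt2 (94.2 to 203 against 31.4 to 46.6 CPM, 1.997 ± 0.30) also rose, and these 4 were chosen for naming after their values were seen. The rise was not shared by all targets. Sgk1, a kinase that acts on ion channels, fell from 46.9, 48.2 and 63.5 CPM to 15.4, 20.2, 25.3 and 14.3 CPM (log2 fold change -1.49 ± 0.22 (SE), adjusted p = 0.00526), and Errfi1, an inhibitor of EGF receptor signalling, fell as well (7.26 to 12.9 against 18.6 to 22.1 CPM, -1.04 ± 0.16). The third to fall was Dusp1, a MAP kinase phosphatase named after its values were seen (5.80 to 9.93 against 19.97 to 48.3 CPM, -2.001 ± 0.36), with an adjusted p of 0.0698 without the 3 muscle-rich libraries. Per1 stood at 38.5 to 48.2 CPM in the CR libraries against 34.1 to 45.5 CPM in the control libraries (adjusted p = 0.257). The mRNA of the receptor itself, Nr3c1, was 48.8 to 66.1 CPM in the CR libraries against 59.8 to 64.5 CPM in the control libraries (adjusted p = 0.565), whereas Hsd11b1, the enzyme that regenerates active glucocorticoid inside cells, rose from 95.5, 112 and 126 CPM to 253, 318, 186 and 254 CPM (log2 fold change 1.18 ± 0.18 (SE), adjusted p = 0.00484). The call of Zbtb16 was lost without control replicate 2 or 3 (adjusted p 0.0746 to 0.0758), and 9 to 10 targets rose and 3 to 4 fell with 1 library left out.

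Promoter windows from RefSeq (GRCm38.p6, 250 bases upstream of each annotated start) were matched by symbol to 10006 of the 13323 tested genes, with all windows counted where a gene has several starts, and the letters searched were chosen after the contents of these windows had been seen. The full palindrome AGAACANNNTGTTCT, read on both strands, was in a window of 1 of these genes, Sgk1, or 0.00999% of the matched genes. The relaxed palindrome GNACANNNTGTNC, which contains every match of the full one, was in a window of 33 genes (0.33%), and 4 of the 21 matched receptor targets (19%) held it, Fam107a, Map3k6, Mt1 and Sgk1. Stretches around it are shown 5′ to 3′ on the strand of the gene because these genes went in opposite directions with CR, and capitals mark the match. All 4 lie before a start that is inside the span RefSeq gives for the gene, so they are upstream of 1 or more annotated transcripts and not of the whole gene.
Sgk1 (chr10:21993661-21993755, plus strand): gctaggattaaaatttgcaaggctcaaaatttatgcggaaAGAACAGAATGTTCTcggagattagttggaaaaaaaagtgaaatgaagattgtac
Fam107a (chr14:8309845-8309937, minus strand): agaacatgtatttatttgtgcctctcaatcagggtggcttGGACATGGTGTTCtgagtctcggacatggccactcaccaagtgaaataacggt
Map3k6 (chr4:133240597-133240689, plus strand): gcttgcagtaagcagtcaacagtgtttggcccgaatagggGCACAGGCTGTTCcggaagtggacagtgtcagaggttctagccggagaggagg
Mt1 (chr8:94178955-94179047, plus strand): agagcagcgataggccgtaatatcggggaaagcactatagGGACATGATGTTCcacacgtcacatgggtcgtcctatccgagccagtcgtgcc
Sgk1 holds the longest match and fell, while the other three rose. A match describes letters only, and distant enhancers were not searched.

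A few thermogenic genes fell and none rose. Ucp1 (chr8:83290348-83298456) stood at 2063, 1887, 2583 and 1871 CPM in the CR libraries and at 3841, 4750 and 4200 CPM in the control libraries, so that each CR library held less than every control library (log2 fold change -1.02 ± 0.12 (SE), adjusted p = 0.000724). Prdm16, a transcription factor of brown fat identity, stood at 10.6, 7.05, 14.1 and 11.3 CPM in the CR libraries and at 22.6, 31.1 and 28.5 CPM in the control libraries, with no overlap (log2 fold change -1.35 ± 0.21 (SE), adjusted p = 0.00498), and Ebf2, a pioneer factor of the same programme, fell less (21.4 to 35.6 against 48.0 to 49.8 CPM, -0.81 ± 0.14). These were the 3 members called among 26 tested, where 6.86% of all genes tested fell, and the median log2 fold change of the list was -0.25. The count of members that fell was 5 without CR replicate 3, and without the 3 muscle-rich libraries 8 fell and 1 rose. Cidea, a lipid droplet protein of brown adipocytes, was not called (1417 to 1693 CPM in the CR libraries against 1490 to 1670 CPM in the control libraries, -0.038 ± 0.078, adjusted p = 0.764). Ppargc1a, a coactivator of mitochondrial genes, stood at 33.5, 15.7, 34.6 and 42.9 CPM in the CR libraries and at 81.5, 31.5 and 101 CPM in the control libraries (adjusted p = 0.172). Its control libraries spanned more than a 3-fold range and overlapped CR. Dio2, the deiodinase that makes active thyroid hormone, stood at 52.7, 21.8, 100.4 and 68.2 CPM in the CR libraries and at 71.5, 191 and 184 CPM in the control libraries (adjusted p = 0.2). Elovl3, a fatty acid elongase of cold-activated BAT, was higher in all CR libraries without passing the test (73.3 to 109 CPM in the CR libraries against 23.6 to 68.3 CPM in the control libraries, 0.95 ± 0.40, adjusted p = 0.156).

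Some receptors that relay signals to brown adipocytes fell. Tshr, the thyrotropin receptor, stood at 2.13, 2.18, 2.02 and 2.54 CPM in the CR libraries and at 8.83, 8.53 and 6.93 CPM in the control libraries (log2 fold change -1.87 ± 0.14 (SE), adjusted p = 5.58e-05), and Ptger3, a prostaglandin E2 receptor, also fell (11.9 to 17.7 against 23.1 to 29.7 CPM, -0.81 ± 0.13). Thra, the alpha thyroid hormone receptor, was lower in every CR library (47.2 to 49.9 CPM in the CR libraries against 72.1 to 73.3 CPM in the control libraries) at a size just under the fold minimum (log2 fold change -0.58 ± 0.06 (SE), adjusted p = 0.000222). The span of Thra (chr11:98740776-98769006) overlaps that of the clock gene Nr1d1, which also fell, and the counting command sets no strand option. How far reads of Nr1d1 enter the Thra counts was not tested. Adrb3, the adrenergic receptor of adipocytes, stood at 120.4, 83.0, 66.2 and 127 CPM in the CR libraries and at 157, 166 and 212 CPM in the control libraries and did not overlap between groups (log2 fold change -0.85 ± 0.25 (SE), adjusted p = 0.0597). With DESeq2 the adjusted p of Adrb3 was 0.0127, and Adrb3 was also called without CR replicate 3 (0.0379) or 4 (0.0452). Of 20 receptors and glucocorticoid enzymes tested, 1 rose, which was Hsd11b1, and 3 fell, the third of them being the mineralocorticoid receptor gene Nr3c2 (1.89 to 4.68 against 6.12 to 6.92 CPM, -0.90 ± 0.25), named after its values were seen, whose call was lost without CR replicate 1 or control replicate 1, 2 or 3 (adjusted p 0.0679 to 0.102). The count that rose was 2 without CR replicate 3. Of all genes tested, 3.87% rose and 6.86% fell. In the creatine cycle, which dissipates ATP in BAT, the phosphatase gene Alpl fell (7.55 to 9.11 against 15.2 to 25.8 CPM, -1.22 ± 0.17), while Ckb, the creatine kinase, was not called (12.6 to 15.8 against 14.97 to 17.3 CPM, adjusted p = 0.134).

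**Figure D2:**
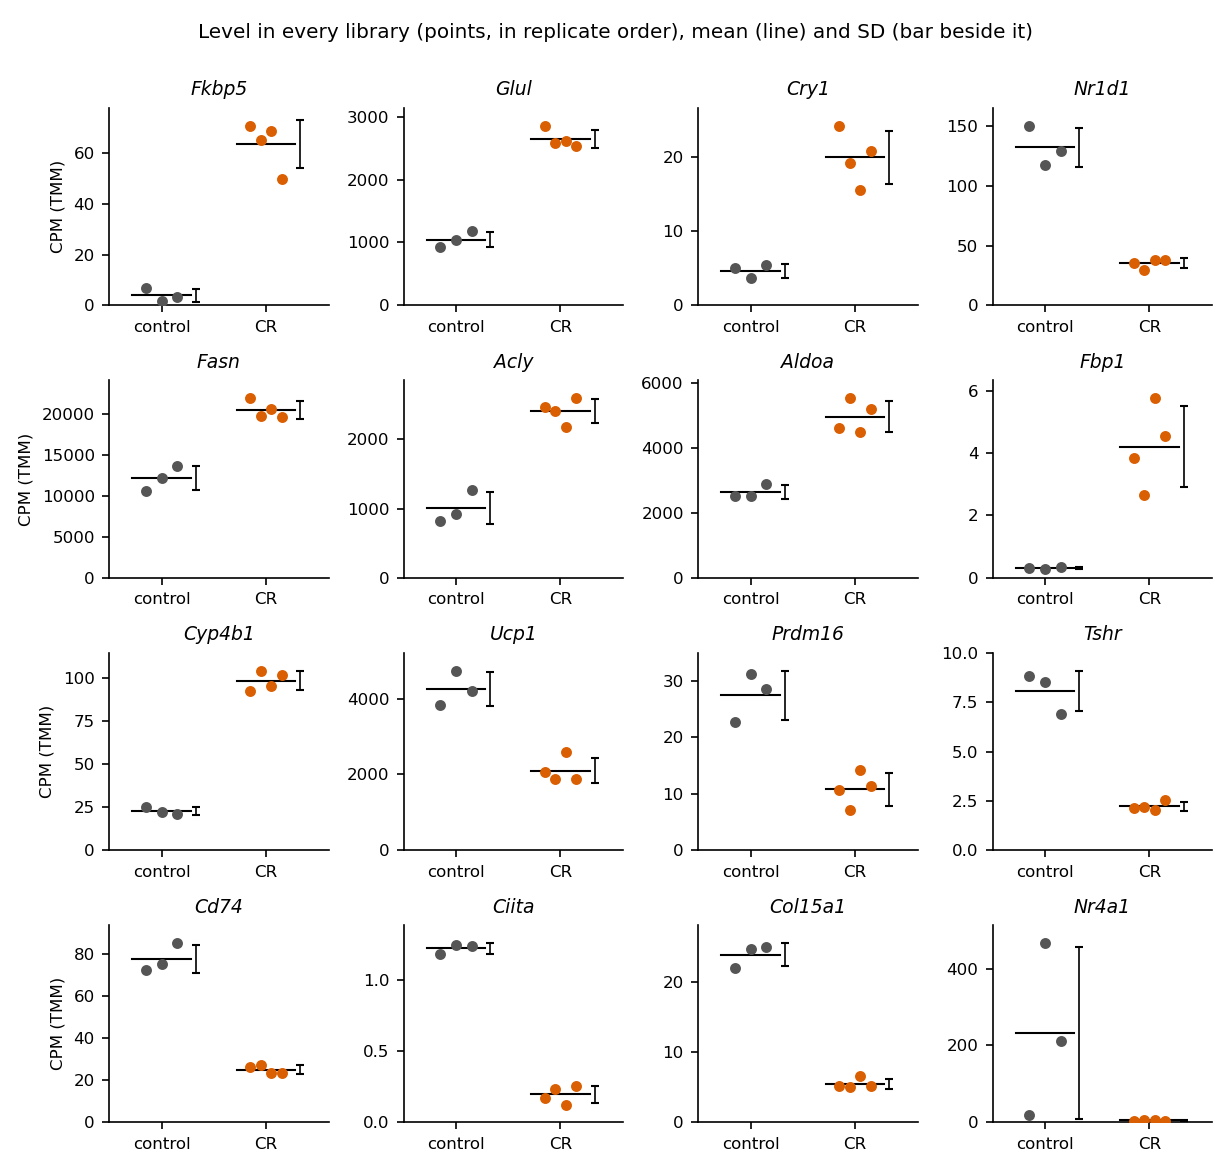
CPM (y axis, starting at 0) of 16 genes in the 3 control libraries (grey) and the 4 CR libraries (orange), each point 1 library, with the group mean as a line and the SD as a bar. The groups are apart in every panel, with even control libraries in most and uneven ones for Nr4a1, at 20.4, 466 and 211 CPM.

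Many genes that make fatty acids rose. Of 27 members tested, 13 rose and none fell, with a median log2 fold change of 0.60, and 11 to 14 rose with 1 library left out. Fasn, fatty acid synthase, stood at 21960, 19810, 20610 and 19630 CPM in the CR libraries and at 10650, 12220 and 13630 CPM in the control libraries. The groups did not overlap, and the fold change was 1.69 (log2 fold change 0.75 ± 0.088 (SE), adjusted p = 0.000419). Acly, which releases cytosolic acetyl-CoA from citrate, stood at 2464, 2415, 2182 and 2597 CPM in the CR libraries and at 825, 928 and 1275 CPM in the control libraries, and each CR library was well above every control library (log2 fold change 1.26 ± 0.15 (SE), adjusted p = 0.00092). Me1, the malic enzyme that supplies NADPH, rose as well (1089 to 1472 CPM in the CR libraries against 389 to 539 CPM in the control libraries, 1.49 ± 0.14, adjusted p = 0.000275). Acaca, acetyl-CoA carboxylase, rose from 1509, 1719 and 1927 CPM to 2798, 2561, 2704 and 2860 CPM (log2 fold change 0.67 ± 0.086 (SE), adjusted p = 0.00072), and Fads1, a desaturase of polyunsaturated fatty acids, rose too (19.9 to 26.4 against 8.99 to 10.4 CPM, 1.255 ± 0.12). A further 4 members were named after their values were seen, namely the citrate carrier Slc25a1 (767 to 858 against 328 to 492 CPM, 1.02 ± 0.13), the elongase Elovl6 (980.3 to 1314 against 500.4 to 719.5 CPM, 0.97 ± 0.14), the lipogenic regulator Thrsp (2606 to 3031 against 1503 to 1952 CPM, 0.76 ± 0.097) and the acetyl-CoA synthetase Acss2 (416 to 597 against 182 to 268 CPM, 1.09 ± 0.16). Scd1, the main stearoyl-CoA desaturase, passed the adjusted p but not the fold minimum (28560 to 32400 CPM in the CR libraries against 20480 to 27330 CPM in the control libraries, 0.32 ± 0.095, adjusted p = 0.0363), and Srebf1, which encodes a lipogenic transcription factor, was not called (103 to 221 against 150.0 to 186 CPM, adjusted p = 0.797). Acaca fell under the fold minimum without control replicate 1 (log2 fold change 0.58), and in a single fit over all 4 BAT groups Acaca, Acly and Acss2 were not called (adjusted p = 0.0882, 0.0877 and 0.0818). In the EX libraries, which that fit takes in, the list summed to 34810 to 76300 CPM. The part of this spread in the lost calls was not tested.

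Sterol synthesis genes rose in part. Of 25 members tested, 11 rose and 1 fell, with a median of 0.60, and 8 to 13 rose with 1 library left out. Lss, which closes the sterol ring, rose from 17.7, 19.4 and 19.2 CPM to 39.1, 34.3, 34.5 and 42.0 CPM (log2 fold change 0.997 ± 0.088 (SE), adjusted p = 0.000112). Fdft1, squalene synthase, stood at 250.2, 292, 241 and 231 CPM in the CR libraries and at 121, 85.5 and 127 CPM in the control libraries (log2 fold change 1.19 ± 0.14 (SE), adjusted p = 0.000988), and Mvd, the decarboxylase of the mevalonate pathway, rose with no overlap (5.54 to 8.68 against 2.01 to 3.26 CPM, 1.39 ± 0.21). The sterol sensor gene Insig1 rose too (264 to 395 against 148 to 202 CPM, 0.81 ± 0.16). Not all members rose. Hmgcs1, the cytosolic HMG-CoA synthase, was the member that fell (50.1 to 102 against 144 to 177 CPM, -0.96 ± 0.23, adjusted p = 0.0326), a call lost without CR replicate 1 or 4 or control replicate 1, 2 or 3 (adjusted p 0.0535 to 0.103). Hmgcs1 was named after its values were seen. The motif CCAATCA, which holds the core of the site of the factor NF-Y and was read on both strands, was in 10 of 18 matched promoters of this list (55.6%) against 11% of all 10006. Of these 10 genes 3 rose and 0 fell by the call rule, beside the 11 that rose and 1 that fell of the 25 tested. The motif was not particular to this list, since 37.5% of matched clock promoters and 23.8% of those of glucocorticoid receptor targets also held it. Windows of a pair of members that rose are shown with the match in capitals.
Mvd (chr8:122443423-122443489, minus strand): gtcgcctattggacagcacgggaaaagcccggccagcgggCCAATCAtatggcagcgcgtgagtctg
Msmo1 (chr8:64733628-64733714, minus strand): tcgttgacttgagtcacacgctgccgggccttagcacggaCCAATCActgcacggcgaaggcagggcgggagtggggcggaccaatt
Msmo1, a sterol demethylase, rose as well (12.5 to 19.4 against 7.91 to 10.4 CPM, 0.90 ± 0.15) and is shown because its window holds the match, a choice made after its value was seen.

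Few genes of lipid storage were called. Of 32 genes of triglyceride synthesis, droplet coat and lipolysis, 1 rose and 1 fell, and the count that fell was 3 without CR replicate 3. The one that fell was Plin1, the perilipin that coats droplets (271 to 397 CPM in the CR libraries against 499 to 536 CPM in the control libraries, -0.67 ± 0.11, adjusted p = 0.00301), and the one that rose was Lpin1, a phosphatidate phosphatase named after its value was seen (365 to 606 against 281 to 359.7 CPM, 0.66 ± 0.19, adjusted p = 0.0459), a call lost without CR replicate 1, 2 or 3 or control replicate 1, 2 or 3 (adjusted p 0.0631 to 0.14). Pnpla2, the adipose triglyceride lipase, was higher in all CR libraries but under the fold minimum (3226 to 3645 CPM in the CR libraries against 2680 to 2838 CPM in the control libraries, 0.329 ± 0.065, adjusted p = 0.00633). Apoe and Scarb1, an apolipoprotein and the HDL receptor, fell from 639, 569 and 662 to 359, 319, 339 and 319 CPM and from 55.1, 61.9 and 61.2 to 33.4, 39.97, 38.1 and 34.1 CPM (log2 fold changes of -0.90 ± 0.073 and -0.71 ± 0.084). Mylip, a ubiquitin ligase that limits lipoprotein uptake, rose (32.9 to 43.8 against 16.1 to 25.3 CPM, 0.99 ± 0.17).

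Some glycolytic and pentose phosphate enzymes rose. Aldoa, the aldolase, stood at 4614, 5528, 4502 and 5199 CPM in the CR libraries and at 2523, 2523 and 2899 CPM in the control libraries (log2 fold change 0.91 ± 0.091 (SE), adjusted p = 0.000199). Gpi1 and Gapdh, which act before and after it, rose by 0.93 ± 0.12 and 0.75 ± 0.11 on the log2 scale, with no overlap between the groups, and Aldoc, another aldolase, named after its values were seen, rose too (1.37 to 2.75 against 0.619 to 0.918 CPM, 1.41 ± 0.27). In all, 4 of 22 glycolysis and glucose uptake genes rose and 1 fell (median 0.28), and the counts were the same with the mean level of the muscle markers as a covariate. The member that fell was Pfkfb3, whose product makes the activator of phosphofructokinase, named after its values were seen (251 to 387 CPM in the CR libraries against 496 to 654 CPM in the control libraries, -0.85 ± 0.14, adjusted p = 0.00544). Slc2a4, the insulin-regulated glucose transporter, was higher in every CR library (399.7 to 469.6 CPM in the CR libraries against 284 to 303 CPM in the control libraries) at 0.56 ± 0.072, adjusted p = 0.00072, just under the fold minimum. Of 13 pentose phosphate and NADPH genes, 5 rose and none fell (median 0.39). They included Tkt, transketolase (3889 to 4603 against 2235 to 2521 CPM, 0.83 ± 0.081), G6pdx, the first enzyme of the pathway (296 to 344 against 169.8 to 218 CPM, 0.72 ± 0.096), and H6pd, its counterpart in the endoplasmic reticulum (204 to 267 against 142 to 160.1 CPM, 0.67 ± 0.095), besides Me1 and the dehydrogenase gene Pgd (354 to 514 against 206 to 282 CPM, 0.77 ± 0.16), the last named after its values were seen. In the fit over all 4 BAT groups Pgd had an adjusted p of 0.127.

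Few genes of oxidation and none of the respiratory chain were called. Of 31 genes of fatty acid oxidation, 3 rose and none fell, and all of these were acyl-CoA thioesterase genes. Acot2 rose (73.8 to 101 CPM in the CR libraries against 52.0 to 55.4 CPM in the control libraries, 0.69 ± 0.11, adjusted p = 0.00182), while Acot1 (23.6 to 52.5 against 4.85 to 12.8 CPM, 1.88 ± 0.45) and Acot3 (1.91 to 5.97 against 0.262 to 1.03 CPM, 2.31 ± 0.55) varied more between libraries. The call of Acot1 was lost without CR replicate 2, 3 or 4 or control replicate 1, 2 or 3 (adjusted p 0.0535 to 0.0936) and that of Acot3 without CR replicate 4 or control replicate 1 or 2 (adjusted p 0.055 to 0.0919), and the count that rose was 1 without CR replicate 4 or control replicate 1 or 2. Cpt1b, the gate of fatty acids into mitochondria, was not called (560.5 to 666 against 674 to 720.2 CPM, -0.21 ± 0.071, adjusted p = 0.0567). None of 36 nuclear genes of complex I and none of 41 of complexes II to V was called by edgeR, although 33 and 36 of them were higher in CR by medians of 0.15 and 0.11. At an adjusted p under 0.05 with no fold minimum, 5 and 2 were higher and 0 and 0 lower, and DESeq2 called 0 and 1 as risen. Genes for cytosolic (80 tested) and mitochondrial (74 tested) ribosomal proteins likewise held no called gene, with medians of 0.12 and 0.10. All 34 proteasome genes were higher in CR by their fitted values (median 0.26), 14 passed the adjusted p, and 1, the ATPase subunit gene Psmc4, also passed the fold minimum (82.1 to 117 against 48.9 to 63.9 CPM, 0.73 ± 0.14), a count that was 2 without CR replicate 3 or control replicate 2 and 3 without control replicate 3. Slc16a1, a carrier of lactate and ketone bodies, fell (48.2 to 96.7 CPM in the CR libraries against 160.5 to 199.9 CPM in the control libraries, -1.34 ± 0.22, adjusted p = 0.00825). Bcat2 and Aldh1l1, enzymes of branched-chain amino acid and folate metabolism, rose by 0.69 ± 0.076 and 1.09 ± 0.11 on the log2 scale. Bcat2 was the only 1 called of 19 genes of branched-chain amino acid breakdown (median 0.10). Of 22 genes of serine and one-carbon metabolism and ATF4 targets, Aldh1l1 among them, 3 rose and 2 fell (median 0.13). With 1 library left out 2 to 4 of these rose and 1 to 4 fell.

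Enzymes of xenobiotic metabolism formed another group that rose, with 14 of 41 called up, none called down and a median of 0.45 (13 to 15 with 1 library left out). Cyp2b10, a cytochrome P450 of drug and steroid metabolism, stood at 93.5, 84.2, 45.2 and 56.3 CPM in the CR libraries and at 6.77, 5.84 and 8.66 CPM in the control libraries (log2 fold change 3.30 ± 0.34 (SE), adjusted p = 0.0022). CR replicates 3 and 4 held the lower levels of their group, well above control. Gstt2, a glutathione transferase, rose from 14.3, 16.7 and 19.3 to 42.3, 32.7, 42.8 and 43.7 CPM (log2 fold change 1.27 ± 0.13 (SE), adjusted p = 0.000243). Mgst3, a microsomal glutathione transferase, and Cyp2d22 rose by 0.82 ± 0.094 and 0.74 ± 0.082 on the log2 scale. Fmo2, a flavin monooxygenase named after its value was seen, rose too (26.7 to 42.7 against 10.1 to 12.2 CPM, 1.59 ± 0.17). Of 26 targets of NRF2 and antioxidant genes 2 rose and none fell, and the 2 were Gclm, the regulatory subunit of glutathione synthesis (24.96 to 34.1 against 15.3 to 18.6 CPM, 0.75 ± 0.12), and Gpx8 (89.6 to 123 against 42.1 to 64.6 CPM, 0.90 ± 0.16). Nqo1 and Hmox1 were not called (adjusted p = 0.08 and 0.173).

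Clock genes went in both directions. Nr1d1, the repressor REV-ERB alpha (chr11:98767932-98775377), stood at 35.8, 29.6, 38.0 and 38.1 CPM in the CR libraries and at 150.2, 117 and 129 CPM in the control libraries, and the groups were far apart (log2 fold change -1.90 ± 0.11 (SE), adjusted p = 5.34e-06). Cry1, a repressor of the feedback loop, went the other way, standing at 24.3, 19.3, 15.6 and 20.9 CPM in the CR libraries and at 4.98, 3.62 and 5.45 CPM in the control libraries (log2 fold change 2.09 ± 0.18 (SE), adjusted p = 0.000151). Per3 rose as well (69.3 to 91.2 against 36.4 to 45.0 CPM, 0.99 ± 0.11). Per2 stood at 50.04, 47.1, 46.9 and 41.0 CPM in the CR libraries and at 20.4, 6.88 and 16.9 CPM in the control libraries. Its call (1.65 ± 0.36, adjusted p = 0.0285) was lost without CR replicate 1, 2, 3 or 4 or control replicate 3 (adjusted p 0.0559 to 0.0736). Of 20 core clock genes 6 rose and 2 fell (median 0.23). With 1 library left out the count that rose was 3 without CR replicate 1, and the count that fell was 1 without CR replicate 3 or control replicate 2 or 3, when Bhlhe40, a repressor named after its values were seen (30.1 to 49.3 against 59.3 to 81.0 CPM, -0.75 ± 0.18), was not called. Arntl, the activator BMAL1, was not called (1.28 to 2.75 against 2.10 to 2.27 CPM, adjusted p = 0.616), nor was its output gene Dbp (37.2 to 47.1 against 31.8 to 36.5 CPM, adjusted p = 0.0749). The labels and the methods give no clock time for tissue collection by group, so a shift of phase and a change of level cannot be told apart. The E-box CACGTG, the site of the activator, was in 5 of 16 matched clock promoters (31.2%) against 9.87% of all. Of these 5 genes 2 rose and 0 fell by the call rule. The E-box was also in 22.2% of matched sterol promoters and 19% of those of glucocorticoid receptor targets, and in 0 of 4 of MHC class II genes. The window of Cry1 is shown because Cry1 has the highest fold change of the clock genes tested, with the E-box in capitals.
Cry1 (chr10:85185069-85185154, minus strand): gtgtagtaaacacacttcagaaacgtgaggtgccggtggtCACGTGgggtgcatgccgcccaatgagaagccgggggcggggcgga

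Extracellular matrix genes fell in several classes. Of 8 fibrillar collagen genes tested, 7 fell and 1 rose, with a median log2 fold change of -1.04. Col1a1, a chain of type I collagen, stood at 14.5, 12.2, 14.1 and 11.04 CPM in the CR libraries and at 31.4, 36.5 and 27.3 CPM in the control libraries (log2 fold change -1.29 ± 0.12 (SE), adjusted p = 0.000137), and Col3a1, the type III chain, stood at 46.3, 31.0, 42.5 and 32.1 CPM in the CR libraries and at 112, 119 and 83.5 CPM in the control libraries (log2 fold change -1.47 ± 0.17 (SE), adjusted p = 0.00139). Both fell by more than 2-fold with no overlap. Col1a2, Col5a1 and Col5a3 fell as well, with log2 fold changes of -0.93 ± 0.10, -1.12 ± 0.12 and -1.18 ± 0.10. Col11a2, the member that rose, went from 2.19, 2.46 and 2.81 to 5.64, 4.54, 4.16 and 5.89 CPM (1.02 ± 0.17), and it was named after its value was seen. In the basement membrane list 11 of 20 fell and none rose (median -0.78). Col15a1, which ties basement membrane to the fibres around it (chr4:47207655-47313167), stood at 5.25, 5.01, 6.59 and 5.11 CPM in the CR libraries and at 21.9, 24.7 and 24.9 CPM in the control libraries (log2 fold change -2.12 ± 0.11 (SE), adjusted p = 3.81e-06). Col4a1 and Col4a2, the chains of the collagen IV network, fell from 252, 233 and 229 to 143, 129, 137 and 136 CPM and from 185, 174 and 160.5 to 107, 98.9, 101 and 103 CPM (-0.80 ± 0.064 and -0.76 ± 0.067). Hspg2, perlecan, fell too (85.9 to 104 against 167 to 195 CPM, -0.91 ± 0.08). In a single fit over all 4 BAT groups 3 fibrillar collagens fell, and Col1a1, Col1a2 and Col5a1 were not called (adjusted p = 0.255, 0.309 and 0.127). In the EX group, which that fit takes in, fibrillar collagens summed to 1347 CPM in replicate 3 and to 277 to 334 CPM in the other libraries. The part of EX replicate 3 in the lost calls was not tested. With 1 library left out, 6 to 7 fibrillar and 9 to 11 basement membrane genes fell.

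Genes fell in the other matrix classes too, with exceptions. The beaded collagen chains Col6a1, Col6a2 and Col6a3 had log2 fold changes of -0.83 ± 0.09, -1.09 ± 0.082 and -1.13 ± 0.15, and Fbn1, fibrillin, stood at 3.60, 2.22, 4.24 and 2.79 CPM in the CR libraries and at 13.8, 11.4 and 8.04 CPM in the control libraries (log2 fold change -1.78 ± 0.23 (SE), adjusted p = 0.00126). In that class 7 of 28 fell and none rose. Sparc, a matricellular protein that binds collagen, fell (216 to 254 CPM in the CR libraries against 354 to 405 CPM in the control libraries, -0.69 ± 0.076, adjusted p = 0.000313), and Smoc2, a relative of it, fell further (9.93 to 11.9 against 24.4 to 25.8 CPM, -1.24 ± 0.083). Smoc1, the close paralog of Smoc2, rose from 44.0, 60.0 and 56.1 to 118, 114, 97.0 and 124 CPM (log2 fold change 1.08 ± 0.12 (SE), adjusted p = 0.000353). Podn, a small leucine-rich proteoglycan, also rose (17.8 to 18.7 against 10.2 to 11.7 CPM, 0.72 ± 0.083), whereas Lum and Ogn of the same family fell (-0.75 ± 0.13 and -0.78 ± 0.10). Loxl1, a lysyl oxidase that crosslinks elastin, fell (5.63 to 9.52 against 15.7 to 22.6 CPM, -1.255 ± 0.18). Enzymes that cut matrix were also among the falls. Mmp2 and Mmp14, a gelatinase and its membrane-bound activator, fell from 18.3, 18.4 and 17.4 to 10.2, 11.7, 9.64 and 10.1 CPM and from 7.69, 7.93 and 8.09 to 3.43, 3.22, 2.88 and 2.15 CPM (-0.79 ± 0.091 and -1.44 ± 0.16). Of 22 proteases and inhibitors 13 fell and 2 rose (median -0.72), and 9 to 13 fell with 1 library left out. The 2 that rose were the inhibitors Timp3 and Timp4 (0.74 ± 0.18 and 1.01 ± 0.23), of which Timp3 lost its call without CR replicate 1, 2 or 4 or control replicate 3 (adjusted p 0.0626 to 0.0835) and fell under the fold minimum without control replicate 2 (log2 fold change 0.57). Timp4 lost its call without CR replicate 1, 2 or 4 or control replicate 3 (adjusted p 0.0573 to 0.085). Mmp2 and Mmp14 had adjusted p = 0.113 and 0.0855 in the fit over all 4 BAT groups.

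**Figure D3:**
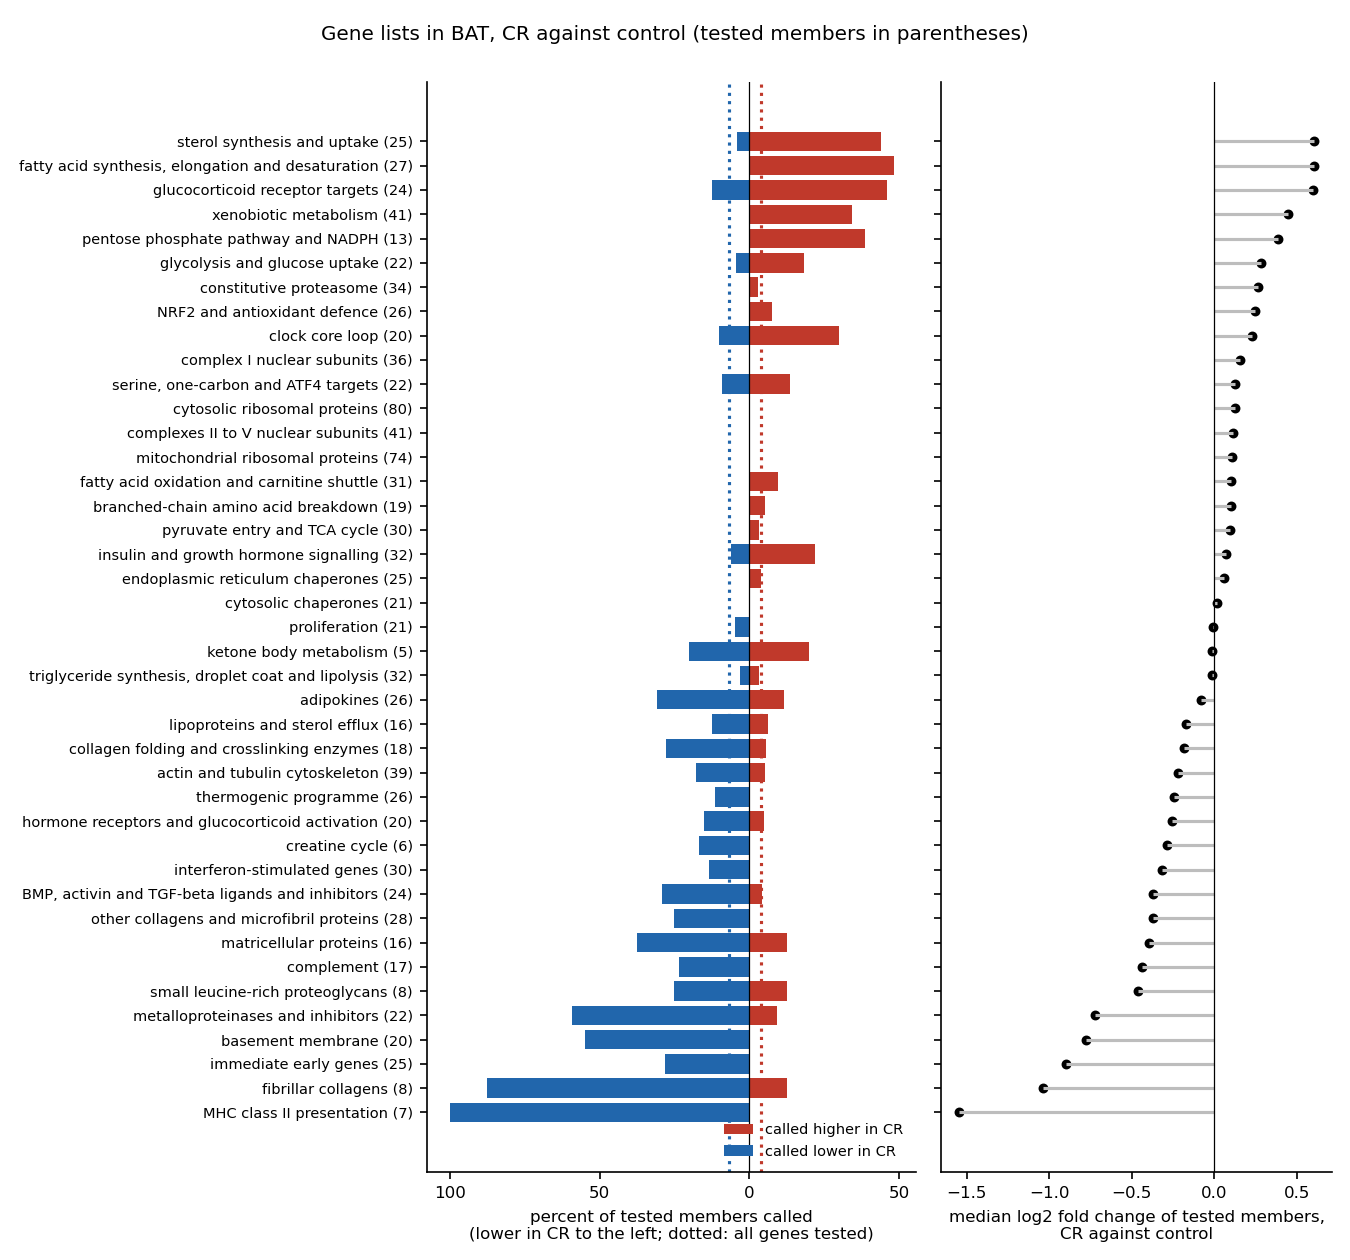
For each gene list (tested members in parentheses) the left panel gives the percent of members that rose (red) or fell (blue), with dotted lines at the 3.87% and 6.86% of all tested genes, and the right panel gives the median log2 fold change. Sterol and fatty acid synthesis and glucocorticoid receptor targets stand at the top, and MHC class II presentation, where 7 of 7 fell, stands at the bottom.

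All 7 tested genes of MHC class II presentation fell, with a median of -1.55, and every tested member fell in each fit with 1 library left out (7 to 8). These genes let professional antigen-presenting cells show peptides to helper T cells. Cd74, the invariant chain, stood at 26.2, 27.4, 23.7 and 23.3 CPM in the CR libraries and at 72.6, 75.5 and 85.4 CPM in the control libraries (log2 fold change -1.63 ± 0.085 (SE), adjusted p = 3.81e-06). The alpha and beta chain genes H2-Aa, H2-Ab1 and H2-Eb1 fell with no overlap (log2 fold changes of -1.51 ± 0.14, -1.70 ± 0.14 and -1.55 ± 0.14), as did H2-DMa and H2-DMb1, which load the peptide and were named after their values were seen (-1.251 ± 0.19 and -1.21 ± 0.20). Ciita, the master activator of these genes, was named after its values were seen. It stood at 0.174, 0.236, 0.124 and 0.258 CPM in the CR libraries and at 1.18, 1.248 and 1.24 CPM in the control libraries, at most 6 counts in a CR library (log2 fold change -2.60 ± 0.30 (SE), adjusted p = 0.00041). The motif CCAATCA was in 3 of 4 matched class II promoters (75%), against 11% of all matched genes. Of these windows 2 are shown, with capitals on the match or on its reverse complement TGATTGG.
H2-Aa (chr17:34287827-34287913, minus strand): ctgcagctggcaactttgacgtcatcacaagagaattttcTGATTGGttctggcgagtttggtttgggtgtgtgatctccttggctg
H2-Eb1 (chr17:34305766-34305852, plus strand): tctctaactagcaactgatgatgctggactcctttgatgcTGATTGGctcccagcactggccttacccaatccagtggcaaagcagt
Markers of lymphocytes and macrophages were also lower. B cell markers summed to 0.217, 0.189, 0.3297 and 0.215 CPM in the CR libraries and 2.45, 2.82 and 2.06 CPM in the control libraries. Only Cd79a, a part of the B cell receptor, had enough reads to test, and it stood at 0.0434, 0.0473, 0.0412 and 0.0430 CPM in the CR libraries and at 0.699, 0.644 and 0.454 CPM in the control libraries, with at most 1 count in a CR library (adjusted p = 0.000514). T and NK cell markers, none of which could be tested, summed to 0.378 to 1.07 CPM in CR and 2.09 to 3.05 CPM in control. Macrophage markers summed to 67.3, 77.4, 49.2 and 56.4 CPM in the CR libraries and 90.5, 87.5 and 91.3 CPM in the control libraries, and 4 of 15 fell. Mpeg1, perforin-2 of macrophages, was among them (1.89 to 3.69 against 4.98 to 6.93 CPM, -1.32 ± 0.24), together with Cx3cr1, Lyz2 and Mrc1, while Adgre1 and Cd68 were not called (adjusted p = 0.103 and 0.151). Adgre1 was called without CR replicate 1 (adjusted p = 0.0351) and Cd68 without CR replicate 2 (0.0401). The macrophage count was 2 without control replicate 2 or 3 and 7 without CR replicate 2. Lyz2 lost its call without control replicate 2 or 3 (adjusted p 0.0518 to 0.0626), and Mrc1 lost it without CR replicate 4 or control replicate 1, 2 or 3 (adjusted p 0.0679 to 0.101) and fell under the fold minimum without CR replicate 3 (log2 fold change -0.51). How much of the class II fall went with these cells was not tested.

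**Figure D4:**
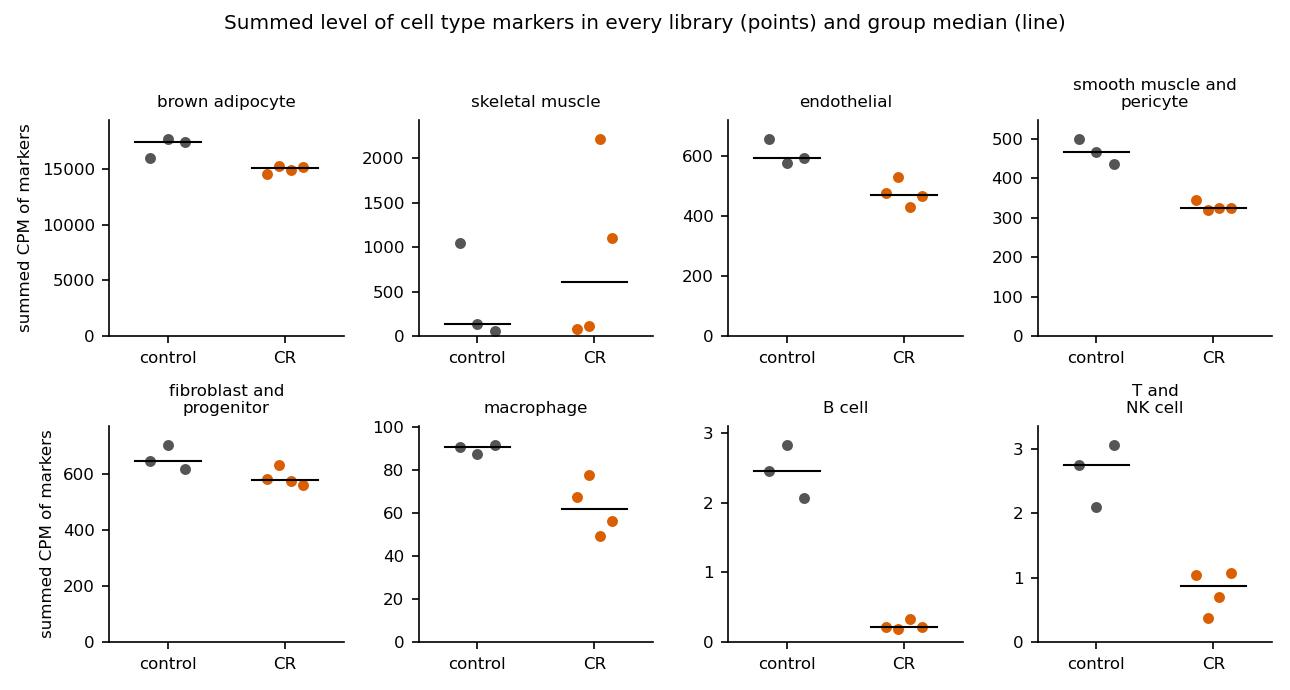
Summed CPM (y axis, from 0) of 8 sets of cell type markers in each of the 3 control (grey) and 4 CR (orange) libraries, with the group median as a line. B cell and T and NK cell sums lie lower in all CR libraries, and the skeletal muscle panel shows CR replicates 3 and 4 and control replicate 1 above the others.

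Few other immune genes were called. Of 30 interferon-stimulated genes 4 fell and none rose, where 6.86% of all genes tested fell. Ddx58, the RNA sensor RIG-I, fell (7.79 to 9.41 against 14.7 to 15.9 CPM, -0.82 ± 0.095), and the others were Isg15 (0.344 to 0.899 against 1.37 to 1.77 CPM, -1.45 ± 0.31), the tetherin gene Bst2 and the GTPase gene Iigp1 (-0.72 ± 0.15 and -0.77 ± 0.13). That count was 8 without CR replicate 2. Of 17 complement genes 4 fell, a count that was 1 without control replicate 2 and 2 without CR replicate 4 or control replicate 1. C4b fell (3.93 to 6.19 against 8.21 to 17.7 CPM, -1.21 ± 0.26), and the others were C2, which lost its call without CR replicate 1 or 4 or control replicate 1 or 2 (adjusted p 0.053 to 0.154), Cfb, which lost it without control replicate 2 (adjusted p = 0.0798), and C7, named after its values were seen, which lost it without CR replicate 1, 3 or 4 or control replicate 1, 2 or 3 (adjusted p 0.0617 to 0.167). C3 and Cfd were not called (421 to 478 against 390.1 to 442 CPM and 473 to 660.4 against 501 to 720.2 CPM). Mast cell proteases Cma1 and Mcpt4 fell (0.174 to 0.3297 against 0.684 to 0.918 CPM and 0.247 to 0.434 against 0.845 to 1.05 CPM).

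Vessel and stromal genes fell in part, where 6.86% of all genes tested fell. Endothelial markers summed to 431 to 531 CPM in CR and 577 to 656 CPM in control, with 2 of 14 called down (1 without control replicate 2). Eng, a co-receptor for TGF-beta ligands, fell from 80.0, 65.4 and 75.1 to 37.9, 44.0, 50.2 and 43.3 CPM (log2 fold change -0.74 ± 0.10 (SE), adjusted p = 0.000956), and Cldn5, a tight junction protein named after its values were seen, fell in this fit (-1.43 ± 0.32) but not without CR replicate 1 or 4 or control replicate 2 or 3 (adjusted p 0.0515 to 0.076). Pecam1 was not called (58.0 to 81.2 against 70.01 to 83.6 CPM, -0.14 ± 0.11, adjusted p = 0.393). Smooth muscle and pericyte markers summed to 319.9 to 346 CPM in CR and 436 to 498 CPM in control, and 4 of 12 fell, namely Kcnj8, a potassium channel subunit of pericytes (7.46 to 10.2 against 16.4 to 20.6 CPM, -1.01 ± 0.12), Acta2, smooth muscle actin (15.6 to 21.8 against 27.5 to 32.5 CPM, -0.67 ± 0.11), Pdgfrb, a growth factor receptor of pericytes (17.9 to 20.3 against 28.6 to 31.9 CPM, -0.67 ± 0.075), and Cspg4, the proteoglycan NG2, which lost its call without CR replicate 1, 2 or 4 or control replicate 1, 2 or 3 (adjusted p 0.0643 to 0.11). Fibroblast and progenitor markers summed to 562 to 633 CPM in CR and 618 to 703 CPM in control with 3 of 13 down (1 without control replicate 2), namely Dpt, dermatopontin (8.86 to 12.5 against 14.9 to 21.9 CPM, -0.89 ± 0.15), Fap, a protease of activated fibroblasts, which lost its call without control replicate 2 or 3 (adjusted p 0.072 to 0.0872), and Cd34, which lost it without CR replicate 1 or control replicate 1 or 2 (adjusted p 0.0516 to 0.0813) and fell under the fold minimum without CR replicate 3 or 4 (log2 fold change -0.58 to -0.52). Pdgfra, the receptor of adipocyte progenitors, was not called (4.73 to 6.597 against 7.04 to 9.70 CPM, -0.44 ± 0.16, adjusted p = 0.0775). The endothelial, pericyte and fibroblast sums moved with the matrix falls, and their part in them was not tested. Mesothelial markers went the other way, with sums of 6.99 to 8.86 CPM in CR and 2.39 to 3.98 CPM in control. Only 1 mesothelial marker had enough reads to test, and it rose (log2 fold change 1.38). S100b, which brown adipocytes and Schwann cells both make, stood at 17.7, 17.8, 20.7 and 15.3 CPM in the CR libraries and at 63.0, 38.6 and 42.5 CPM in the control libraries (log2 fold change -1.42 ± 0.18 (SE), adjusted p = 0.00155), and Ngfr, the nerve growth factor receptor, fell too (0.288 to 0.662 against 0.908 to 1.33 CPM, -1.22 ± 0.328, adjusted p = 0.0249), a call lost without CR replicate 4 or control replicate 1 or 2 (adjusted p 0.0624 to 0.106). These were the 2 called of 8 Schwann and nerve markers tested (1 without control replicate 1), 7 of which were lower by their fitted values, and the sums were 67.4 to 99.2 CPM in CR and 113 to 139 CPM in control. Sox10, a defining factor of Schwann cells, was not called (adjusted p = 0.596). In the cytoskeleton, Actg1 and Myh10, a non-muscle actin and myosin, fell (log2 fold changes of -0.95 ± 0.086 and -1.38 ± 0.13), and Vim, the intermediate filament vimentin, rose (478 to 682 CPM in the CR libraries against 291 to 406 CPM in the control libraries, 0.78 ± 0.14, adjusted p = 0.00583).

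Secreted factors and signalling genes were mixed. Among 26 adipokines 3 rose and 8 fell, and the count that rose was 1 without CR replicate 1 or 3 or control replicate 1 or 2. Cxcl14, a chemokine of active BAT, fell from 9.22, 12.3 and 11.5 to 3.25, 4.02, 3.92 and 4.08 CPM (log2 fold change -1.52 ± 0.14 (SE), adjusted p = 0.000112), and Agt, angiotensinogen, rose (1.85 to 2.47 against 0.454 to 0.699 CPM, 1.80 ± 0.23). The others that rose, named after their values were seen, were the NAD synthesis gene Nampt, which fell under the fold minimum without CR replicate 1 or 3 or control replicate 1 or 2 (log2 fold change 0.52 to 0.58), and the serpin gene Serpina3c, which lost its call without CR replicate 1, 3 or 4 or control replicate 1, 2 or 3 (adjusted p 0.0661 to 0.122). Lep, leptin, stood at 3.34, 1.99, 3.42 and 2.79 CPM in the CR libraries and at 13.3, 5.88 and 3.42 CPM in the control libraries (adjusted p = 0.084). Control replicate 3 lay level with the highest CR library, and DESeq2 gave Lep an adjusted p of 0.00213. Without control replicate 3 it was 0.0194. Adipoq, adiponectin, was not called (722 to 794 CPM in the CR libraries against 744 to 803 CPM in the control libraries, -0.049 ± 0.066, adjusted p = 0.631). Igfbp4 and Igfbp5, which bind insulin-like growth factors, went in opposite directions. Igfbp4 rose from 28.5, 34.6 and 29.4 to 72.1, 52.4, 72.7 and 70.9 CPM (log2 fold change 1.12 ± 0.12 (SE), adjusted p = 0.000383), while Igfbp5 fell from 46.3, 46.1 and 36.6 to 25.2, 23.7, 23.3 and 23.6 CPM (log2 fold change -0.84 ± 0.087 (SE), adjusted p = 0.000222). Of 32 genes of insulin and growth hormone signalling 7 rose and 2 fell, the other being Pik3r3, a regulatory subunit of PI 3-kinase (2.89 to 5.03 against 6.32 to 9.03 CPM, -1.03 ± 0.20), and the count that rose was 2 without control replicate 2, 3 without control replicate 3 and 4 without CR replicate 1 or 2 or control replicate 1. Smad6, an inhibitor of BMP signalling, stood at 2.69, 1.80, 5.32 and 2.92 CPM in the CR libraries and at 14.2, 19.2 and 13.9 CPM in the control libraries (log2 fold change -2.30 ± 0.325 (SE), adjusted p = 0.00391), and Gdf5, a BMP-family ligand, fell too (0.645 to 0.899 against 2.01 to 2.15 CPM, -1.48 ± 0.21). Of 24 ligands and inhibitors of that family 1 rose and 7 fell. The one that rose was the ligand gene Gdf10, named after its values were seen, which lost its call without CR replicate 1, 2 or 4 or control replicate 1 or 3 (adjusted p 0.0715 to 0.118), the count that rose was 0 without CR replicate 1, 2 or 4 or control replicate 1 or 3 and 2 without CR replicate 3, and the count that fell was 3 without control replicate 1 or 2 and 4 without CR replicate 1 or 4. Pmepa1, an inhibitor of TGF-beta signalling, stood at 21.9, 16.2, 59.3 and 24.1 CPM in the CR libraries and at 212, 234 and 202 CPM in the control libraries (log2 fold change -2.83 ± 0.49 (SE), adjusted p = 0.016). CR replicate 3 was the highest of its group, and the call was lost without CR replicate 4 or control replicate 1 or 2 (adjusted p 0.0504 to 0.0566). Ccnd1, cyclin D1, fell (0.710 to 1.195 against 3.18 to 3.496 CPM, -1.80 ± 0.20).

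Immediate early genes, which answer nerve and stress signals within minutes, had low medians and uneven libraries. Nr4a1, a nuclear receptor that beta-adrenergic signals induce, stood at 2.87, 6.95, 7.46 and 4.12 CPM in the CR libraries and at 20.4, 466 and 211 CPM in the control libraries (log2 fold change -5.44 ± 1.15 (SE), adjusted p = 0.0302). The control libraries alone differed by more than 20-fold, and the call was lost without CR replicate 1, 2, 3 or 4 or control replicate 2 or 3 (adjusted p 0.0579 to 0.0895). Klf4 and Klf2, Krüppel-like factors, fell more evenly, from 21.02, 29.1 and 34.0 to 6.25, 8.09, 10.3 and 6.92 CPM and from 41.0, 69.9 and 67.3 to 25.1, 27.6, 27.98 and 25.2 CPM (-1.83 ± 0.21 and -1.17 ± 0.18), and Jund fell as well (19.6 to 25.2 against 38.3 to 50.03 CPM, -0.90 ± 0.11). Egr1 stood at 3.47, 6.34, 1.28 and 2.49 CPM in the CR libraries and at 1.84, 42.3 and 2.27 CPM in the control libraries, where control replicate 2 alone was high (adjusted p = 0.296). Of 25 tested, 7 fell and none rose (median -0.90), and the count that fell was 3 without CR replicate 2 and 4 without CR replicate 1 or 4. The count was 4 with the muscle covariate.

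The same diet contrast in trained mice, CREX against EX, shares no library with CR against control. Skeletal muscle markers summed to 1535, 2132, 9733 and 3122 CPM in the CREX libraries and 1833, 5629, 6171 and 64.3 CPM in the EX libraries. The muscle covariate was not fitted to this contrast, nor to the interaction term described below. In that contrast 246 of 13251 genes rose (1.86%) and 348 fell (2.63%) by the same rule, 594 in all, a total that was 384 without CREX replicate 1, 363 without CREX replicate 4, 381 without EX replicate 2 and 388 without EX replicate 3. Of the 516 genes that rose with CR in sedentary mice, 494 were tested there, 484 had a fold change of the same sign and 171 were called in the same direction. Of the 914 that fell, 884 were tested, 858 had the same sign and 262 were called in the same direction. Fkbp5 had a log2 fold change of 3.46 ± 0.40, adjusted p = 0.00505 in trained mice. Cyp4b1 rose (2.01 ± 0.28, adjusted p = 0.008) and Nr1d1 fell (-2.30 ± 0.35, adjusted p = 0.0131). Ucp1 fell as well (-0.99 ± 0.19, adjusted p = 0.0192). The class II genes fell again, 7 of 7 (median -1.28), and 10 of 24 glucocorticoid receptor targets rose and 0 fell (median 0.86). Of 27 fatty acid synthesis genes 2 rose (median 0.28), and Acly and Fasn were not called (0.53 ± 0.55, adjusted p = 0.602 and 0.56 ± 0.24, adjusted p = 0.185). That list summed to 76300, 34810, 46290 and 54300 CPM in the EX libraries and to 63580 to 71280 CPM in the CREX libraries. EX replicate 1 thus lay above every CREX library. Col1a1 had a wide error (-3.21 ± 0.99, adjusted p = 0.107), and 1 of 8 fibrillar collagens fell by the call rule (median -1.81). Fibrillar collagens summed to 334, 326, 1347 and 277 CPM in the EX libraries and to 137 to 154 CPM in the CREX libraries. Sgk1 and Errfi1, which fell in sedentary mice, had log2 fold changes of -0.42 ± 0.23 and 0.031 ± 0.26 in trained mice and were not called.

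**Figure D5:**
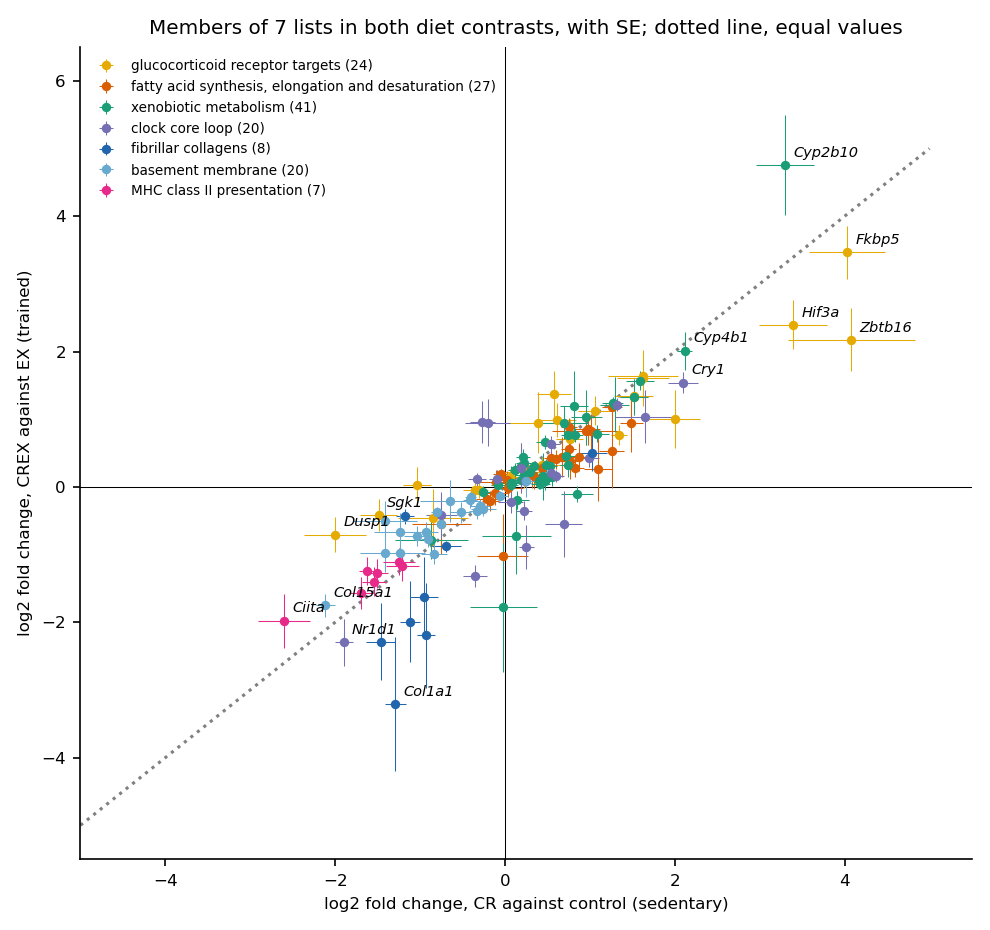
Log2 fold change with its SE for the members of 7 lists, CR against control in sedentary mice on the x axis and CREX against EX in trained mice on the y axis, with a dotted line where both are equal. Most points lie in the lower left and upper right of the plot, with Fkbp5 and Cyp2b10 at the top and the class II genes at the lower left.

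Whether the diet response differed between sedentary and trained mice was tested with the interaction term of all 4 BAT groups. edgeR called 0 of 13922 genes at an adjusted p under 0.05, with 800 at an unadjusted p under 0.05. DESeq2 called 5, namely Mcam, Col4a1, Notch1, Ffar2 and Col5a3, and edgeR with no filter on low counts called 1, Mcam, all named after their values were seen. For Mcam the log2 fold change was -1.56 ± 0.11 in sedentary and -0.55 ± 0.10 in trained mice, an interaction of 1.01 with an adjusted p of 0.179 in edgeR and 0.000106 in DESeq2. For Col4a1 the values were -0.80 ± 0.064 and -0.37 ± 0.071, with an adjusted interaction p of 0.513 in edgeR and 0.00877 in DESeq2.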

How the data were processed

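RNA of BAT and gastrocnemius muscle was sequenced as paired ends on a BGISEQ-500, and the 7 sedentary BAT libraries (4 CR, 3 control) were analysed here. The authors trimmed the reads, mapped them to mm10 with STAR 2.7.10a and deposited RSEM expected counts per gene symbol (RSEM 1.2.28 per the labels). The counting command in the methods sets no strand option, and the annotation is not given in the sources used here, so overlapping genes, antisense genes and near-identical copies are uncertain. Expected counts were rounded and tested with edgeR 4.0.16 (TMM scaling, filterByExpr, robust quasi-likelihood fit of the 2 groups compared, in R 4.3.3). SE is the log2 fold change divided by the square root of F. CPM was computed after TMM scaling over the 15 BAT libraries.

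The libraries held 21154276 to 24665593 counts, and no pair agreed within counting noise. Genes were named from the largest changes, the smallest p-values and, in each gene list, its best known, most changed and highest members. The largest changes were picked among called genes without overlap between CR and control and with a mean of at least 2 CPM in either group. Others are said to be chosen after their values were seen. The gene lists, the comparison and the promoter letters were chosen with earlier results of these data known. Lists are described by counts and medians, with no test. Alternatives were DESeq2 1.42.0, RLE scaling, other filters, no fold minimum, a fit over all 4 BAT groups, a replicate block, a muscle marker covariate and each library left out. Leaving out the 3 libraries richest in muscle transcripts was added after seeing the data. The test was checked on simulated counts. The muscle samples were not used here, and a few genes are not reported here. Sequences and gene positions came from RefSeq on GRCm38.p6, the assembly behind mm10.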

Additional observations from a re-analysis of the deposited data

Results flagged for a closer look

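In the CR group of 4 libraries, the highest or lowest library was compared with the others for 203 values, namely the genes named here and the marker sums. In 11 of them 1 library stood apart by more than Dixon's 95% critical value allows. Chance alone gives such a result in about 1 of 20, so 11 of 203 is near the number that chance gives. CR replicate 1 stood apart for 2 of these. Elovl3 was at 73.3 CPM, below the 104 to 109 CPM of the other libraries. The sum of the smooth muscle and pericyte markers was at 346 CPM, above the 319.9 to 323 CPM of the other libraries. CR replicate 2 stood apart for 6 of these. Ckb was at 15.8 CPM, above the 12.6 to 12.9 CPM of the other libraries. Col5a3 was at 14.2 CPM, above the 10.7 to 11.2 CPM of the other libraries. Gpi1 was at 1545 CPM, above the 1148 to 1207 CPM of the other libraries. Gstt2 was at 32.7 CPM, below the 42.3 to 43.7 CPM of the other libraries. Igfbp4 was at 52.4 CPM, below the 70.9 to 72.7 CPM of the other libraries. Nqo1 was at 1.80 CPM, above the 1.35 to 1.42 CPM of the other libraries. CR replicate 3 stood apart for 2 of these. Col15a1 was at 6.59 CPM, above the 5.01 to 5.25 CPM of the other libraries. Dbp was at 47.1 CPM, above the 37.2 to 38.6 CPM of the other libraries. CR replicate 4 stood apart for 1 of these. Col6a1 was at 19.2 CPM, below the 21.5 to 21.9 CPM of the other libraries. Without CR replicate 2 the calls of Gpi1, Gstt2, Igfbp4 and Col5a3 remained, and Col15a1 remained called without CR replicate 3 and Col6a1 without CR replicate 4. Ckb, Dbp, Elovl3 and Nqo1 were not called.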

How the results depend on the processing

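The number of DEGs with CR was 1430 by the test reported and 994 to 1717 with 1 library left out (352 to 600 up, 642 to 1117 down), lowest without control replicate 2 and highest without CR replicate 3. With no fold change minimum it was 2778 (1331 up, 1447 down), and for CREX against EX it was 1061 with no minimum and 363 to 582 with 1 library left out. Deviations of same-numbered CR and control libraries from their group means correlated at -0.471, 0.00227 and -0.438. These 3 values show no clear pairing by the replicate numbers of the labels, but so few pairs cannot exclude one. With the number as a replicate block 929 DEGs were left (367 up, 562 down), of which 877 were among the 1430. The interaction of CR and EX gave 5 genes with DESeq2 and 1 with no filter on low counts, and the edgeR test with that block gave 0, with 638 at an unadjusted p under 0.05. DESeq2 (535 up, 895 down, with 1314 of the 1430 shared), RLE size factors (516 and 915), the other filters (508 and 944 with none, 446 and 815 with at least 10 counts in every library), the muscle covariate (575 and 1024) and the fit over all 4 BAT groups (480 and 899) stayed within 1.5 times the number reported. Without the 3 libraries richest in muscle transcripts, a choice made after seeing the data, 649 rose and 1059 fell, 1048 of them shared. No gene of the 1430 was called in the opposite direction in any of these fits. Of the 162 genes named here as called, 136 kept their call in all 7 fits with 1 library left out. The fit over all 4 BAT groups ended the calls of Acaca, Acly, Acss2, Bhlhe40, C4b, C7, Cd34, Col1a1, Col1a2, Col5a1, Fap, Iigp1, Lyz2, Mmp14, Mmp2, Mrc1, Ogn, Pgd and Ptger3, and the replicate block ended those of Bhlhe40, C2, C4b, C7, Cd34, Cldn5, Cspg4, Cyp2b10, Fap, Hmgcs1, Insig1, Isg15, Loxl1, Lyz2, Mrc1, Mt1, Mt2, Nr4a1, Per2, Pmepa1, Serpina3c, Slc16a1, Smad6, Timp4, Ngfr and Zbtb16, while it called Ppargc1a (log2 fold change -1.28, adjusted p = 0.0022) and Elovl3 (1.04, 0.0476). Among low values, depth limits genes such as Cd79a and Ciita, which had at most 1 and 6 counts in a CR library. The cause of these changes was not tested.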
